A study of Mus musculus with 5 samples.

Results

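Cardiac fibroblasts (CF) share a set of transcription factors with the developing heart and its surrounding mesenchyme, and 10 of them were followed here: Tcf21, Twist1, Twist2, Hand2, Tbx20, Tbx5, Gata4, Gata6, Meox1 and Prrx1. They were taken by name from the 20365 gene names in the deposited tables, and for each the 3′ UTR interval was used whose deposited CPM was highest on average over the labeled libraries. All 10 genes were found. SLAMseq was performed on CF of adult healthy male C57Bl/6J wildtype mice, which were released from the heart by collagenase perfusion and grown to confluency in culture. In 3 libraries the cells had been kept for 12 h with 0.1 mM 4-thiouridine (S4U), which cells take up and use like uridine in newly made RNA, and in 2 libraries cells had been kept in parallel without S4U. The RNA of both groups was alkylated, after which S4U appears in the sequence as a T>C conversion. Converted positions divided by all covered T positions give the T>C rate of an interval, which is higher the more of a transcript's copies were made within the labeling time. The cells are a cultured population at confluency, and no tissue was sequenced. The study's comparison of labeled with unlabeled cells tells newly made from older transcripts, and the levels give the abundance of each transcript.

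The 10 factors belong to 4 families that differ in how they bind DNA. Tcf21, Twist1, Twist2 and Hand2 are basic helix-loop-helix (bHLH) proteins. They bind E-box sequences, mostly as dimers with the widely expressed E proteins. Tbx20 and Tbx5 carry a T-box domain, Gata4 and Gata6 bind DNA by zinc fingers, and Meox1 and Prrx1 are homeodomain proteins. Tcf21 marks epicardium-derived cells that become fibroblasts. Gata4, Hand2 and Tbx5 are best known from cardiomyocyte development, where they act with Mef2c, and the same factors are used to reprogram fibroblasts towards cardiomyocytes. Meox1 is known as a switch gene of activated fibroblasts, and Prrx1 and the Twist proteins as factors of mesenchymal cells. Messages of many transcription factors are short-lived, and AU-rich motifs and Pumilio sites in the 3′ UTR are among the elements known to shorten the life of a message.

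Between 506045 and 1842863 reads per library fell on 1 interval per gene, with the fewest in labeled replicate 3. The library-wide T>C rate was 3.55% ± 0.0264 (SD, n = 3) in the labeled libraries, and 0.111% and 0.0652% in the unlabeled libraries. The 8 fibroblast markers Pdgfra, Ddr2, Thy1, Dcn, Lum, Col1a1, Col1a2 and Vim were read in every labeled library, and their summed level lay between 25051 and 35141 RPM over the 5 libraries, where RPM is the number of reads per 1000000 reads counted on 1 interval per gene. The 8 cardiomyocyte markers together reached 1.90 to 9.04 RPM, with Myl2 and Ryr2 at 0 in every library. Markers of endothelial cells summed to 92.9 to 187 RPM and those of macrophages to 35.8 to 73.6. Epicardial markers summed to 55.3 to 147 RPM, nearly all of it from Tbx18, with Msln and Krt19 at 0 in every library. Markers of pericytes and smooth muscle reached 3.01 to 13.8 RPM and those of Schwann cells 1.98 to 6.69. Nothing in the labels says that libraries of a group came from separate animals, and the study's methods speak of 3 CF preparations, so that p-values measure the spread between these libraries.

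The 3′ ends of 8 factors are shown with the poly(A) signal AATAAA within the last 50 bases of the interval, since these libraries are primed at the poly(A) tail and hold the 3′ ends of transcripts. The signal, written in capitals, was found there in 9 of the 10 genes and in 61.8% of the intervals of 20329 genes. Gata6 is the ninth gene and is not shown, and no match was found for Tbx20 in this window. Each window has 30 bases of GRCm39 on the strand of the transcript and is written 5′ to 3′.
Tcf21, chr10:22693181-22693210, minus strand: gctacttccgaaAATAAAtctttctttata
Twist1, chr12:34009787-34009816, plus strand: ttatttttctgcAATAAAtaaatatgattg
Twist2, chr1:91775718-91775747, plus strand: acacccaggaacAATAAAgaggcctgcaca
Hand2, chr8:57777515-57777544, plus strand: ttgtaagtattcAATAAAccactgcgtgtt
Tbx5, chr5:120023249-120023278, plus strand: ccattaatgcctAATAAAtaccatgtgctt
Gata4, chr14:63436377-63436406, minus strand: cagtatttaactAATAAAtttatctgtatt
Meox1, chr11:101768340-101768369, minus strand: aactctcagagaAATAAAtcaacaaaaaaa
Prrx1, chr1:163072693-163072722, minus strand: tgatttcttttcAATAAAatgaaagagtga

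Matches of 3 motifs were then counted over the whole intervals on the strand of the transcript, with overlapping matches counted: ATTTA, the core of AU-rich elements, TATTTAT, which contains an ATTTA, and TGTANATA, the Pumilio motif. Tbx20 held 17 ATTTA matches in its 4640 bases, more than 93.0% of the 1443 intervals of similar length (0.75 of its length up to the length for which it is 0.75), whose median was 7. It also held 3 matches of TATTTAT, a motif present in 62.2% of intervals of similar length, and 0 of TGTANATA, which 56.5% of them hold. The shorter interval of Twist1 (662 bases) held 2 overlapping TATTTAT matches, where 17.1% of similar intervals hold any, and 1 TGTANATA match, where 13.7% do. Meox1, with 867 bases, held none of the 3 motifs, while 68.7% of intervals of its size hold an ATTTA. Prrx1 held 4 ATTTA, 1 TATTTAT and 2 TGTANATA matches in 3278 bases, where 48.2% of similar intervals hold a TGTANATA. Gata6 held 4 ATTTA and 1 TGTANATA match in 1266 bases, where 24.1% of similar intervals hold a TGTANATA, and Tbx5 held 3 ATTTA and 2 TATTTAT matches in 1731 bases, where 36.8% hold a TATTTAT. Tcf21 and Gata4 held 2 ATTTA matches each and neither of the longer motifs, Hand2 held 2 ATTTA and 1 TATTTAT, and Twist2 held 1 of each of these. The TATTTAT match of Tbx20 nearest to the 3′ end, the match in Twist1, the single matches of Twist2 and Hand2, and TGTANATA matches of Twist1 and Prrx1 are shown, with the motif in capitals, because the matches lie in transcripts whose T>C rates are given further on.
Tbx20, chr9:24632194-24632223, minus strand: taagtgcaataTATTTATttctgccagaaa
Twist1, chr12:34009680-34009709, plus strand: agacaacattcTATTTATttattgatgacc
Twist2, chr1:91775650-91775679, plus strand: gcttatttgttTATTTATtgagatatttta
Hand2, chr8:57776995-57777024, plus strand: atcatccggttTATTTATgtgcaatttcct
Twist1, chr12:34009757-34009786, plus strand: tatgactgtttTGTAAATAtcttttgtata
Prrx1, chr1:163074053-163074082, minus strand: tggtatctgacTGTACATAaatataacctt

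The intervals differed in size and place. On GRCm39, Tcf21 (ENSMUSG00000045680.10) was read on chr10:22693162-22693635, 474 bases of its last exon on the minus strand. Tbx20 (ENSMUSG00000031965.16) was read on chr9:24632108-24636747, in the last exon of the protein-coding transcript Tbx20-201 on the minus strand. Prrx1 (ENSMUSG00000026586.18) was read on chr1:163072688-163075965, in the last exon of Prrx1-201 and Prrx1-202 on the minus strand. The Twist1 interval (ENSMUSG00000035799.8, chr12:34009169-34009830, plus strand) ran 2 bases past the annotated end of the gene, and the Twist2 interval (ENSMUSG00000007805.6, chr1:91775111-91775756, plus strand) had 640 of its 646 bases in annotated exons. Hand2 (ENSMUSG00000038193.6) was read on chr8:57776896-57777552 in the last exon of Hand2-201, and Tbx5 (ENSMUSG00000018263.13) on chr5:120021553-120023283, both on the plus strand. Gata4 (ENSMUSG00000021944.17) was read on chr14:63436363-63437823 on the minus strand and Gata6 (ENSMUSG00000005836.12) on chr18:11084371-11085636 on the plus strand, both in last exons. Meox1 (ENSMUSG00000001493.11) was read on chr11:101768336-101769202 on the minus strand, and a longer interval of the gene that ends at 101769432 carried the same reads. Genes on the other strand overlap the intervals of Tcf21 (Gm10824) and Hand2 (Hand2os1, ENSMUSG00000121988 and Gm34030). The kit keeps the strand, but the sources used here do not say whether the counting did, so the reads of these 2 genes are less certain.

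The levels of the 10 factors ran from rank 57 to rank 12150 among the 20365 gene names. Tbx20, a T-box factor of heart development, had the highest level of the 10, followed by Tcf21 and Prrx1, and this order held in all 5 libraries. Tbx5 was last in all 5. As deposited, CPM values in the labeled libraries averaged 121 ± 106 (SD, n = 3) for Tbx20, 60.6 ± 39.1 for Tcf21 and 33.5 ± 29.1 for Prrx1. They averaged 6.73 ± 6.63 for Twist1, 6.33 ± 3.80 for Gata4, 6.21 ± 3.56 for Gata6, 4.14 ± 1.92 for Hand2, 3.12 ± 1.40 for Twist2, 2.48 ± 2.16 for Meox1 and 0.103 ± 0.0902 for Tbx5. The authors' CPM is relative to all reads of a library, of which labeled replicate 3 had the fewest on 3′ UTR intervals, and all 10 factors had their lowest labeled CPM there. Without labeled replicate 1, the mean CPM was 61.5 for Tbx20, 39.3 for Tcf21, 17.1 for Prrx1, 2.94 for Twist1 and 1.34 for Meox1, a change of over 1.5 times for each. Levels are therefore given below in RPM. Since a 3′ end library gives about 1 read per transcript, they are compared between genes without dividing by length. Reads of 3′ ends outside the interval used are not counted, which limits such comparisons. The interval ended 2674 bases before the annotated end of the gene for Tbx20, 1359 for Gata6, 359 for Tcf21 and 125 for Hand2. For Twist2 and Prrx1 it was 20786 and 30844 bases, and for Gata4, Tbx5 and Meox1 at most 1. In bulk RNA, fewer cells that express a gene and less RNA of it per cell cannot be told apart.

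**Figure D1:**
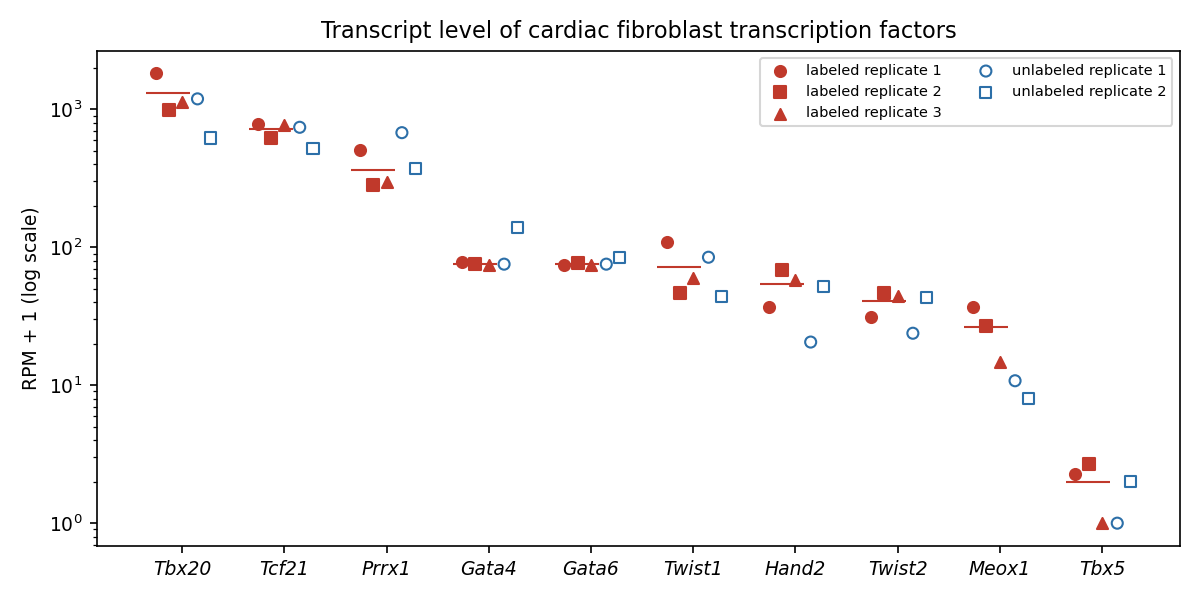
Level of each of the 10 transcription factors in the 5 libraries, in RPM (reads per 1000000 reads counted) plus 1, on a log axis. Filled red symbols are labeled and open blue symbols unlabeled libraries, and the red line is the labeled mean. Tbx20, Tcf21 and Prrx1 stand above the other factors, Tbx5 lies near the bottom, and Meox1 has all labeled libraries above both unlabeled ones.

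Tbx20 gave 2870, 1183 and 571 reads in labeled replicates 1, 2 and 3 and 2188 and 615 reads in unlabeled replicates 1 and 2. This was 1821, 990 and 1128 RPM in the labeled and 1187 and 617 in the unlabeled libraries. Labeled replicate 1 was highest and unlabeled replicate 2 lowest, and the groups overlapped. With a labeled mean of 1313 ± 445 (SD, n = 3), Tbx20 ranked 57th of all genes, above 99.5% of the genes read in every labeled library. It alone made up 52.5%, 44.5% and 45.0% of the summed level of the 10 factors in the labeled and 41.2% and 32.9% in the unlabeled libraries. A second Tbx20 interval, chr9:24651544-24651992, which ends the transcript Tbx20-202, held 115 labeled reads, 2.49% of those on the interval used.

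Tbx5, the other T-box factor of the list and a partner of Gata4 in cardiomyocytes, was nearly unread. It gave 2, 2 and 0 reads in the labeled and 0 and 1 in the unlabeled libraries, a level of 0.981 ± 0.873 (SD, n = 3) RPM. A gene with 0 reads in the labeled libraries together could have up to 0.915 RPM, the level of 3 reads. With 20, 28 and 0 covered T positions in the labeled libraries, Tbx5 has no usable T>C rate.

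Tcf21, the bHLH factor of epicardium-derived fibroblasts, gave 1233, 734 and 387 reads in the labeled and 1361 and 520 in the unlabeled libraries. This corresponds to 782, 614 and 765 RPM in the labeled and 739 and 522 in the unlabeled libraries. The groups overlapped, with unlabeled replicate 2 lowest. The labeled mean was 720.4 ± 92.4 (SD, n = 3), which was rank 160 of all genes. The ratio of Tbx20 to Tcf21 was 2.33, 1.61 and 1.48 in the labeled and 1.61 and 1.18 in the unlabeled libraries, so Tbx20 was the higher in every library, by a factor that varied between them.

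Prrx1, the homeodomain factor of mesenchyme, gave 790, 338 and 150 reads in the labeled and 1244 and 367 in the unlabeled libraries. Its level was 501, 283 and 296 RPM in the labeled and 675 and 368 in the unlabeled libraries, highest in unlabeled replicate 1 and overlapping between groups. The labeled mean of 360.2 ± 122 (SD, n = 3) put it at rank 464. Prrx1 was also read at a second 3′ end, chr1:163082846-163085325, the last exon of Prrx1-204. This interval held 18.9%, 23.4% and 18.0% as many reads as the interval used in the labeled and 15.4% and 23.7% in the unlabeled libraries. Over the labeled libraries its T>C rate was 4.10% (95% Wilson interval 3.63 to 4.63), against 4.10% (3.85 to 4.36) for the interval used. A further interval, chr1:163077254-163080606, had 70 labeled reads and a rate of 2.86% (2.02 to 4.03).

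Twist1 and Twist2, bHLH proteins of mesenchymal cells, were far lower than Tcf21. Twist1 gave 171, 54 and 30 reads in the labeled and 154 and 43 in the unlabeled libraries, or 108, 45.2 and 59.3 against 83.6 and 43.2 RPM. The libraries numbered 1 were the highest of both groups, and the groups overlapped. Twist2 gave 48, 54 and 22 labeled and 42 and 42 unlabeled reads, or 30.5, 45.2 and 43.5 against 22.8 and 42.2 RPM. Here the libraries numbered 1 were the lowest. Twist1 was thus 3.56 times Twist2 in labeled replicate 1 and 3.67 times in unlabeled replicate 1, but 1.00, 1.36 and 1.02 times in labeled replicates 2 and 3 and unlabeled replicate 2.

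Hand2, a bHLH factor of heart and limb development, gave 57, 80 and 29 reads in the labeled and 36 and 51 in the unlabeled libraries, or 36.2, 66.9 and 57.3 against 19.5 and 51.2 RPM. The groups overlapped, and unlabeled replicate 1 was lowest. Gata4 and Gata6, the zinc finger factors of the heart, were read at nearly equal levels. Gata4 gave 76.8, 74.5 and 73.1 RPM in the labeled and 74.3 and 139 in the unlabeled libraries, from 121, 89, 37, 137 and 138 reads. Gata6 gave 73.0, 76.2 and 73.1 in the labeled and 74.3 and 83.3 in the unlabeled libraries, from 115, 91, 37, 137 and 83 reads. The ratio of Gata4 to Gata6 was 1.05, 0.978 and 1.00 in the labeled libraries, 1.00 in unlabeled replicate 1 and 1.66 in unlabeled replicate 2.

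Meox1, the homeodomain factor linked to fibroblast activation, gave 57, 31 and 7 reads in the labeled and 18 and 7 in the unlabeled libraries. This was 36.2, 25.9 and 13.8 RPM in the labeled and 9.77 and 7.03 in the unlabeled libraries. Every labeled library lay above both unlabeled libraries, and the value of labeled replicate 3 rests on 7 reads. The labeled mean was 25.3 ± 11.2 (SD, n = 3).

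From the highest to the lowest labeled mean the order was Tbx20, Tcf21, Prrx1, Gata4, Gata6, Twist1, Hand2, Twist2, Meox1 and Tbx5. Of the 9 pairs of neighbours in this order, 4 had labeled values that did not overlap: Tbx20 and Tcf21, Tcf21 and Prrx1, Prrx1 and Gata4, and Meox1 and Tbx5. Within the run from Gata4 to Meox1, the labeled values of every pair of neighbours overlapped. Compared within a library, Hand2 was above Twist2 in all 3 labeled libraries, by 13.8 ± 8.02 RPM (SD, n = 3), and in 1 of the 2 unlabeled libraries, while the other neighbours in this run were not in the same order in all 3 labeled libraries. Both libraries numbered 1, labeled and unlabeled, were above all other libraries for Prrx1, Tbx20 and Twist1, 3 of the 9 factors other than Tbx5, against 30% of the 9807 genes that passed a filter on low counts. They were below all others for Hand2 and Twist2, 2 of 9, against 22.7% of these genes. This pattern was looked for after the values were seen, and these shares are near those of all genes. The median level of the 10 factors was 72.5 RPM, against 5.31 over all genes.

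In the labeled libraries, Prrx1, Gata6, Tcf21, Hand2, Twist2 and Gata4 had mean T>C rates between the quartiles of all genes. Meox1, Tbx20 and Twist1 had mean rates above the upper quartile, but Twist1 fell below it without labeled replicate 3 (4.15%). The 9 factors other than Tbx5 had T>C rates between 3.50% and 5.34%, with a median of 3.93%. The median of the 8284 genes that had 100 or more covered T positions per library was 3.84%, with quartiles of 3.36% and 4.25%. In the beta-binomial test, with Benjamini-Hochberg adjustment over 19240 intervals, the rate was raised over the unlabeled libraries for 9 of the 9 factors, with adjusted p from 4.2e-06 to 0.000341. Among all intervals tested 94.5% were raised, so that this count says little about these factors. Likewise, all labeled values lay above both unlabeled values for 9 of 9 factors and for 99.4% of the 8284 genes. An exact permutation test of 3 against 2 libraries cannot give a p below 0.1.

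**Figure D2:**
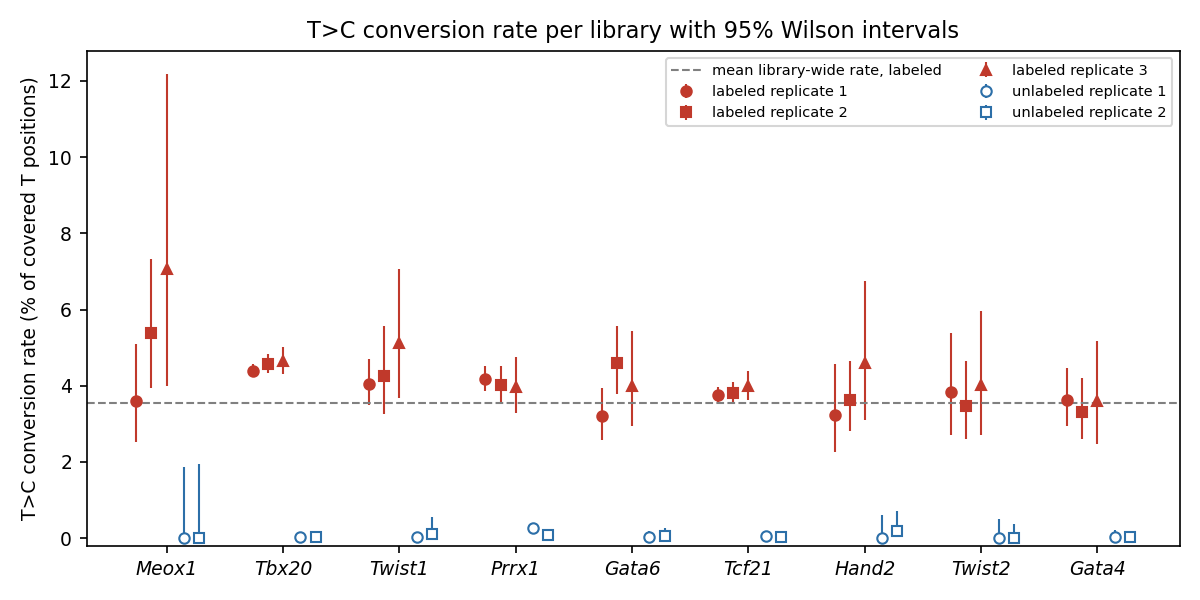
T>C conversion rate of the 9 transcription factors with a rate, per library, in percent of covered T positions, with 95% Wilson intervals for counting error. Filled red symbols are labeled and open blue symbols unlabeled libraries, and the dashed line is the mean library-wide labeled rate of 3.55%. Tbx20, Prrx1 and Tcf21 have narrow intervals, while Meox1 spreads from 3.60% to 7.05% over the labeled libraries.

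Tbx20, the most abundant of the factors, also had a high rate. It was 4.39% (95% Wilson interval 4.22 to 4.56), 4.57% (4.33 to 4.82) and 4.65% (4.30 to 5.02) in labeled replicates 1, 2 and 3, on 57990, 27313 and 13425 covered T positions. The unlabeled libraries gave 0.0395% and 0.0258%. The mean of 4.53% ± 0.134 (SD, n = 3) was above that of 86.5% of the 8284 genes. In all 3 labeled libraries the rate of Tbx20 was above those of Prrx1, Tcf21, Twist2 and Gata4, and the values did not overlap. It exceeded that of Tcf21 by 0.680 ± 0.0656 percentage points (SD over 3 libraries).

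Tcf21 stood near the middle of all genes. Its rate was 3.76% (3.55 to 3.98), 3.82% (3.55 to 4.10) and 3.99% (3.63 to 4.39) in the labeled libraries, with a mean of 3.86% ± 0.122 (SD, n = 3), above that of 50.7% of the 8284 genes. Its unlabeled rates were 0.0537% and 0.0150%. Prrx1 had 4.17% (3.85 to 4.52), 4.01% (3.56 to 4.51) and 3.96% (3.29 to 4.75), a mean of 4.05% ± 0.113, above 63.2% of genes. Both were above the library-wide rate in every labeled library.

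Prrx1 had the highest background of the 9 factors in unlabeled replicate 1. There, 64 conversions on 23461 covered T positions gave 0.273% (95% Wilson interval 0.214 to 0.348), above 86.9% of the 8284 genes in that library and 2.46 times the library-wide rate. In unlabeled replicate 2, 5 conversions on 7300 covered positions gave 0.0685%. The deposited number of Prrx1 reads with a conversion in unlabeled replicate 1, 73, is larger than the 64 conversions, and the cause of this was not tested. The second Prrx1 interval had 3 conversions on 4892 covered positions in that library.

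Meox1 had the highest mean rate and the widest spread. Its rate was 3.60% (2.53 to 5.09), 5.39% (3.93 to 7.34) and 7.05% (3.98 to 12.2) in labeled replicates 1, 2 and 3, on 834, 687 and 156 covered T positions. The mean of 5.34% ± 1.73 (SD, n = 3) was above that of 98.5% of the 8284 genes, but it fell to 4.49% without labeled replicate 3, and the rate pooled over the labeled libraries was 4.65% (3.74 to 5.77). No conversion was seen in the unlabeled libraries, where 203 and 195 covered positions allow rates of up to 1.48% and 1.54%.

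Twist1 also had a high mean rate, and Twist2 a middling one. Twist1 had 4.05% (3.49 to 4.69), 4.26% (3.26 to 5.56) and 5.12% (3.69 to 7.07). The mean of 4.48% ± 0.568 (SD, n = 3) was above that of 84.5% of the 8284 genes. It fell to 4.15% without labeled replicate 3, and the rate pooled over the labeled libraries was 4.21% (3.73 to 4.74). Both of these values lay between the quartiles of all genes. Twist2 had 3.83% (2.71 to 5.39), 3.47% (2.59 to 4.65) and 4.02% (2.69 to 5.96), a mean of 3.78% ± 0.278. Twist1 was the higher in all 3 labeled libraries without overlap, by 0.701 ± 0.448 percentage points, although in each library their intervals for counting error overlapped. In the unlabeled libraries Twist1 had 1 conversion in each, and Twist2 none, with limits of 0.383% and 0.288%.

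Hand2 had rates of 3.22% (2.26 to 4.56), 3.62% (2.82 to 4.65) and 4.60% (3.11 to 6.75), a mean of 3.81% ± 0.709 (SD, n = 3). Its unlabeled replicate 1 had 0 conversions on 620 covered positions, a limit of 0.484%, and unlabeled replicate 2 had 0.197%. Gata6 had 3.19% (2.58 to 3.95), 4.59% (3.78 to 5.57) and 4.00% (2.94 to 5.43), a mean of 3.93% ± 0.704. Gata4 was the lowest of the 9, with 3.62% (2.93 to 4.45), 3.31% (2.60 to 4.20) and 3.59% (2.48 to 5.17), a mean of 3.50% ± 0.171, above that of 31.0% of the 8284 genes. Both GATA genes had 1 conversion in each unlabeled library. Gata4 and Gata6 overlapped in rate as they did in level.

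By mean rate the order was Meox1, Tbx20, Twist1, Prrx1, Gata6, Tcf21, Hand2, Twist2 and Gata4. No neighbours in this order were separated: of 8 neighbouring pairs, 0 had labeled values that did not overlap. Of all 36 pairs, 9 were separated in the labeled libraries, and they set Tbx20 above Prrx1, Tcf21, Twist2 and Gata4, Twist1 above Tcf21, Twist2 and Gata4, and Prrx1 and Tcf21 above Gata4. A paired exact test over 3 libraries cannot give a p below 0.25, so the order is a description. Tcf21, Twist1, Tbx20, Prrx1 and Meox1 were above the library-wide rate in all 3 labeled libraries, 5 of 9 factors against 34.3% of the 8284 genes. Of the factors 0 were below it in all 3, against 14.9% of genes. The library-wide rate is lower than the median of genes, and these shares were not tested against each other.

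**Figure D3:**
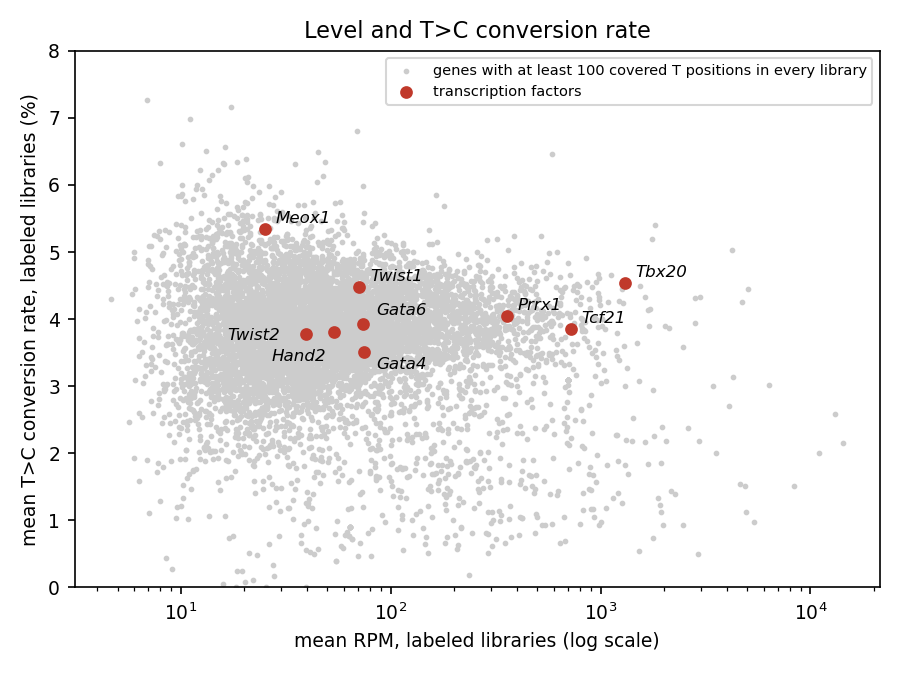
Mean T>C conversion rate (percent of covered T positions) against mean level (RPM, log axis) over the 3 labeled libraries. Gray points are the 8284 genes that had 100 or more covered T positions per library, and red points the 9 transcription factors with a rate. Tbx20 has the highest level of the 9 with a rate above that of 86.5% of genes, and Meox1 has the highest rate at the lowest level.

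Counted by reads in place of positions, the order changed. On average over the labeled libraries, 60.5% of the Tcf21 reads and 60.5% of the Twist1 reads carried a T>C conversion, 58.8% of Tbx20, 56.6% of Meox1, 56.3% of Gata6, 53.2% of Twist2, 50.5% of Gata4, 50.1% of Prrx1 and 46.1% of Hand2. Tcf21 was thus level with Twist1 by reads and below it by positions. The SD of these shares over the labeled libraries ran from 0.780 percentage points for Prrx1 to 21.2 for Meox1. Whether the deposited reads with a conversion were counted over the same positions as the conversions was not tested. The share of T in the whole interval was 29.1% for Tcf21, 27.8% for Twist1 and 32.9% for Tbx20, and its part in the changed order was not tested.

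Reads of labeled and unlabeled cells were compared next, to see whether labeling went with a change in level. In edgeR (quasi-likelihood test, p adjusted by Benjamini-Hochberg), 0 of the 9 factors that passed the filter on low counts were called, as were 0 of 9807 genes (0%). At an unadjusted p below 0.05 there were 585 genes (5.97%), 279 higher (2.84%) and 306 lower (3.12%), and DESeq2 called 20 genes at an adjusted p below 0.05 (0.288% of 6955), none of them among these factors. Meox1 had the largest difference, a log2 fold change of 1.68 (SE 0.49) with the higher level in the labeled libraries, an unadjusted p of 0.0104 and an edgeR adjusted p of 0.642. It was the only factor whose groups did not overlap, as was the case for 21.3% of all genes tested, with labeled above unlabeled for 8.2% and below for 13.1%. DESeq2 gave no adjusted p for it. With the replicate number as a block, on 1 residual degree of freedom, edgeR called 1145 genes (11.7%). Among them were Meox1 (log2 fold change 1.94, edgeR adjusted p 5.5e-06) and Tbx20 (0.70, edgeR adjusted p 0.000135). Labeled replicate 3 has no unlabeled library of its number, so these fold changes rest on the libraries numbered 1 and 2. No label says what a replicate number stands for. Up to the part on processing, results of edgeR's test are without the block.

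The other factors differed by less. The edgeR log2 fold changes, labeled against unlabeled, were 0.68 (SE 0.52) for Hand2, 0.63 (SE 0.38) for Tbx20, 0.36 (SE 0.41) for Twist2, 0.28 (SE 0.26) for Tcf21 and 0.25 (SE 0.45) for Twist1. They were -0.01 (SE 0.26) for Gata6, -0.44 (SE 0.34) for Gata4 and -0.45 (SE 0.35) for Prrx1. Adjusted p was 0.962 for Tbx20 and above that for the others, by the edgeR test without the block. The median of the 9 was 0.28 and that of all genes 0.02. Tbx5 did not pass the filter.

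**Figure D4:**
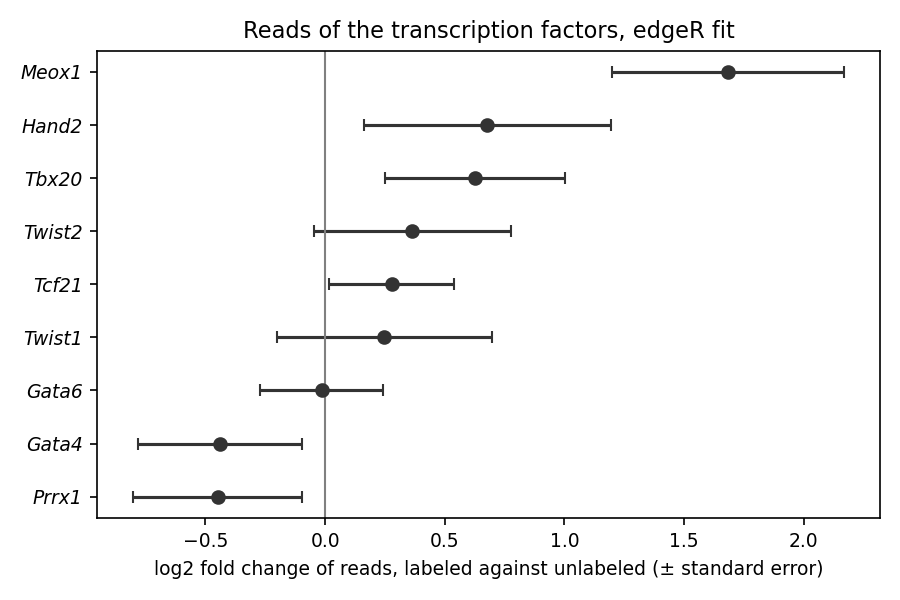
Log2 fold change of reads, labeled against unlabeled, for the 9 transcription factors that passed the filter on low counts, as fitted by edgeR, with bars of 1 standard error on each side. Meox1, at 1.68, is farthest from 0. The fit has no replicate block, and 0 of the 9 passed an adjusted p of 0.05 in it.

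Other genes that act with these factors were read alongside. A list of 11 partners and cofactors held the E proteins Tcf3, Tcf4 and Tcf12, with which bHLH factors pair, the FOG proteins Zfpm1 and Zfpm2, which bind GATA factors, the MADS-box factors Mef2a, Mef2c, Mef2d and Srf, the homeodomain factor Nkx2-5 and the chromatin remodeler subunit Smarcd3. The median level was 50.8 RPM, and 10 of 11 were read in every labeled library. Tcf4 had the highest level of these, 952 ± 259 (SD, n = 3) RPM, with a mean between those of Tbx20 and Tcf21 in the labeled libraries. In the unlabeled libraries Tcf4 was above Tbx20, at 1217 against 1187 RPM in replicate 1 and 981 against 617 RPM in replicate 2. Nkx2-5, a marker of the cardiomyocyte lineage, had the lowest, 1.22 ± 1.06, close to Tbx5. The median rate was 3.97% over the 8 genes with one, from 3.23% ± 0.564 for Mef2c to 4.23% ± 0.459 for Mef2d. In edgeR's test 0 of 10 rose and 0 fell, and 1 of 10 had groups that did not overlap, against 21.3% of all genes tested.

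Relatives of the factors within their families had a lower median level. Of 16 such genes 9 were read in every labeled library, and Hand1, Tbx1, Gata1 and Gata5 had no read in any library. Their median was 4.40 RPM. Tbx18, a T-box factor of epicardium and sinus node, was the highest with 91.6 ± 47.7 (SD, n = 3), far below Tbx20 in every library. Hand1 had 0 reads, for which up to 0.915 RPM is possible, while Hand2 had 53.5 ± 15.7 RPM. Among the 5 relatives with a rate, Meox2 was highest with 5.31% ± 1.64, close to the mean of Meox1, and Msc lowest with 2.82% ± 0.0764. The rate of Meox2 rests on only 22, 9 and 5 reads in labeled replicates 1, 2 and 3. In edgeR's test 0 of 5 rose and 0 fell, and 3 of the 5 had groups that did not overlap, against 21.3% of all genes tested. These were named after their values were seen. Prrx2 had a log2 fold change of 1.64 (SE 0.46) and an edgeR adjusted p of 0.627. Gata3 had 0.98 (SE 0.38) with an adjusted p of 0.793, and Meox2 -1.21 (SE 0.43) with an adjusted p of 0.742. Meox1 and Meox2 thus differed in sign, as did Prrx1 and Prrx2, with none of these past the threshold of this test.

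**Figure D5:**
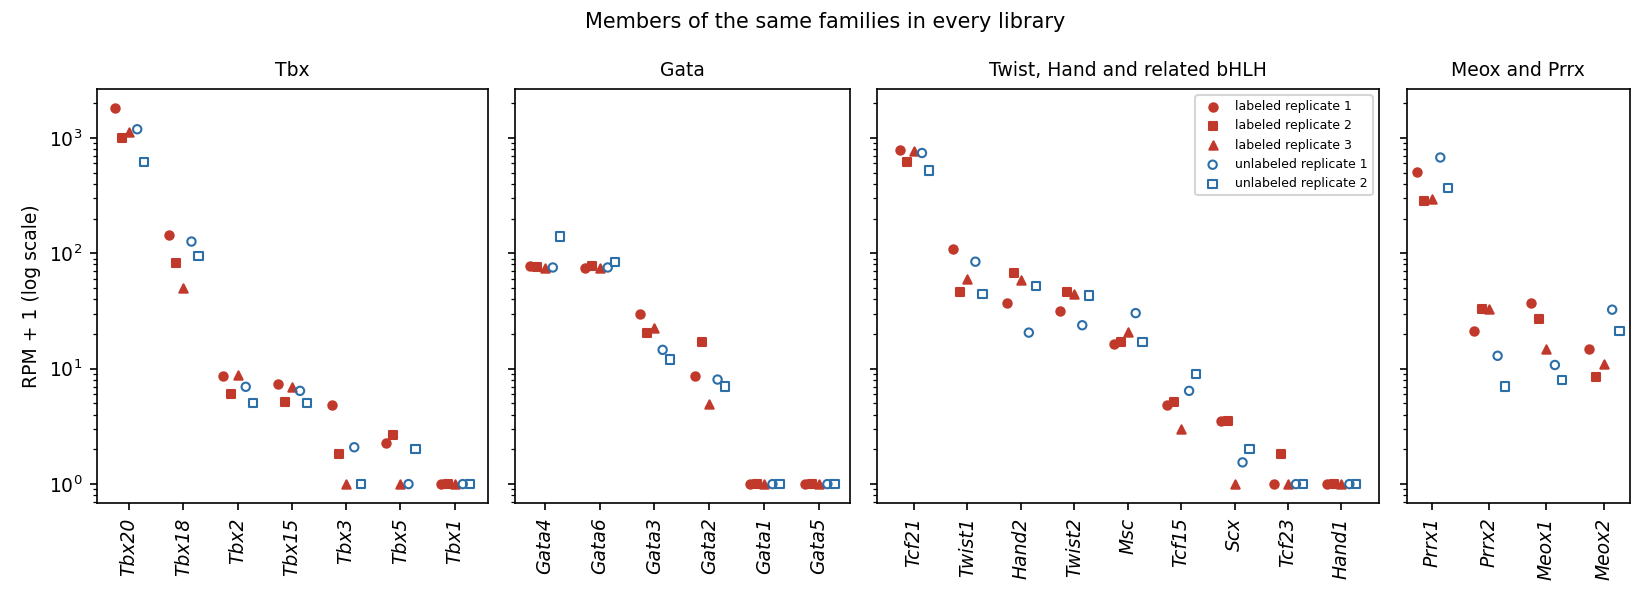
Levels of the 10 transcription factors and of their relatives in each library, grouped by family, in RPM plus 1 on a log axis. Filled red symbols are labeled and open blue symbols unlabeled libraries. Tbx20, Tcf21 and Prrx1 are the highest of their panels, and points at 1 on the axis are libraries without a read of the gene.

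Other groups of transcription factors gave a scale for these values. Of 8 epicardial and mesenchymal factors, all were read in every labeled library, with a median level of 98.2 RPM. Nr2f2, an orphan nuclear receptor, was highest with 290.5 ± 124 (SD, n = 3) and Wt1, an epicardial zinc finger factor, lowest with 4.64 ± 1.13, while rates ran from 3.55% ± 0.139 for Nr2f2 to 4.14% ± 0.399 for Tbx18, with a median of 3.80%. The 11 Kruppel-like factors had a median level of 101.2 and a median rate of 3.76%, with Klf6 highest in level (502 ± 112) and lowest in rate (3.30%), Klf5 lowest in level (5.59) and Klf10 highest in rate (4.29%). The 8 AP-1 genes, early-response factors, had a median level of 31.2 and a median rate of 3.44% over 4 genes, from 2.55% for Jund to 3.65% for Junb, with levels from 0.211 for Fosb to 231 for Junb. Of the 8 Id and Hes/Hey genes, Id3, which sequesters E proteins, was highest with 1495 ± 79.1 RPM, above the mean of Tbx20 although below it in labeled replicate 1 (1572 against 1821 RPM), and Hey2 lowest with 3.47. Their rates had a median of 3.65%, from 3.23% for Heyl to 3.84% for Id2. The numbers of genes that rose and fell in edgeR's test were 0 and 0 in each of these lists. Groups did not overlap for 2 of 7 epicardial and mesenchymal, 0 of 10 Kruppel-like, 0 of 4 AP-1 and 4 of 7 Id and Hes/Hey genes tested, against 21.3% of all genes. Set beside the median of 3.93% for the 9 factors and 3.84% for all genes, these lists had medians from 3.44% to 3.80%.

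Genes that lie downstream of these factors or that define the fibroblast had a higher median level and a lower median rate. The list of 10 held Postn, Col1a1, Col1a2, Pdgfra, Ddr2, Nppa, Nppb, Myh6, Tnc and Acta2, and its median level was 513.7 RPM. Col1a1, the main chain of type I collagen, was highest with 13036 ± 270 (SD, n = 3), and Nppb, a natriuretic peptide of stressed cardiomyocytes, had no read in any library. The rate of the 7 genes that had one was 3.54% at the median. Tnc, a matrix glycoprotein, had the highest with 4.30% ± 0.497, and Col1a2 the lowest with 2.0% ± 0.0741. The mean of Tnc was below those of Tbx20 (4.53% ± 0.134) and Twist1 (4.48% ± 0.568), but by less than its SD. In edgeR's test 0 of the 7 rose and 0 fell, and 4 of the 7 had groups that did not overlap, where the share over all genes was 21.3%. Tnc had a log2 fold change of 2.29 (SE 0.37), larger than that of Meox1, with an unadjusted p of 0.000434 and an edgeR adjusted p of 0.434.

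For the 3 factors with the highest levels, the genes with the most similar levels over the 5 libraries were sought among 9806 others, by the root-mean-square difference of log2(RPM + 1). Nearest to Tbx20 were Unc5b (0.19), Rpl8 (0.27) and Rps24 (0.27), to Tcf21 Tmed9 (0.11), Atf4 (0.12) and Postn (0.13), and to Prrx1 Lpar1 (0.16), Rad23b (0.19) and Tmem30a (0.20). Genes of like level differed in T>C rate. Of the neighbours of Tbx20, Unc5b had 4.44%, against 4.53% for Tbx20, and Rps24 1.3%. Postn, at a labeled level of 722 RPM against 720.4 for Tcf21, had a rate of 2.23% against 3.86%.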

How the data were processed

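CF libraries with S4U (3) and without (2) were grouped by the submitters' labels. The authors extracted UMI, ran SLAM-DUNK 0.4.3 against mm39, removed duplicates and deposited, per 3′ UTR interval, counts of reads, of reads with a conversion, of covered T positions and of conversions. The deposited conversion rate is a fraction, and the deposited CPM is relative to 10975173 to 14616278 reads per library, which exceeds what the intervals hold. A row that occurred repeatedly entered only once. Starts in the tables count from 0, and the T content of 40380 of 40380 intervals matched GRCm39. Sequences and annotation came from GRCm39 and are given counted from 1.

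The members and the lists of other genes were chosen with earlier results of these data known. In each list the genes with the highest and lowest level and T>C rate were named, and relatives that did not overlap between groups, the AATAAA search and the comparison of libraries numbered 1 were added after the values were seen. Rates were recomputed from conversions and covered T positions, with 95% Wilson intervals. Where none was seen the limit is 3 conversions. Both cover counting error only. Labeled and unlabeled rates were compared with a two-sided beta-binomial likelihood-ratio test (1 shared overdispersion, 1 degree of freedom) for intervals where each library covered 1 T or more, and reads with edgeR 4.0.16 (quasi-likelihood, TMM, filterByExpr), both with Benjamini-Hochberg adjustment and a threshold of 0.05. Chi-square per degree of freedom between libraries of a group was 2.20 to 18.2, so none was a copy of another. Alternatives were DESeq2 1.42.0, limma 3.58.1 on log odds (pseudocount 0.5), DESeq2 size factors, other filters and intervals, the replicate number as a block and each library left out. The scripts ran under R 4.3.3 and Python 3.11.15 (pandas 2.3.3, scipy 1.17.1, numpy 2.4.6, pysam 0.24.0, numba 0.67.0, matplotlib 3.10.9).

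On simulated data, the beta-binomial test recovered 90.5% of 200 changed intervals among 3000 and called 0.143% of the others after adjustment. At an unadjusted p below 0.05 it called 6.64% of the others. In a like simulation limma recovered 186 of 200 with 8 false calls. Of the intervals tested in the data 94.5% were raised, a far larger share than was simulated. For labeled against unlabeled reads, edgeR recovered 120 of 200 genes with a log2 fold change of 2 among 9530, with 7 false calls, the block fit 97 with 5, and DESeq2 106 with 8. The proteome, secretome and single-cell data of the study were not analysed here.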

Additional observations from a re-analysis of the deposited data

How the results depend on the processing

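The raised T>C rate was called for 9 of 9 factors under each alternative except the minimum of 1000 covered T positions in every library, where only 3 factors were tested and 3 called. Over all intervals the count of 18175 became 3154 with that minimum and 10617 with 1 interval per gene, which leave fewer intervals to test, and it ran from 16920 to 18549 with a library left out. For reads, 0 genes and 0 factors were called by edgeR with any library left out, with other size factors, without the filter or with reads summed over intervals. DESeq2 called 20 genes (13 higher, 7 lower) and 0 factors, and the cause of the difference was not tested. Replicate numbers 1 and 2 occur in both groups, and no label says what a number stands for. With the number as a block, edgeR called 1145 genes (11.7%; 528 higher, 617 lower) and 2 factors, on 1 residual degree of freedom. In this fit Tbx20 had a log2 fold change of 0.70 (SE 0.15, adjusted p 0.000135) and Meox1 one of 1.94 (SE 0.36, adjusted p 5.5e-06). Labeled replicate 3, without an unlabeled library of its number, does not enter these fold changes. The block SE was nearly the same for Tbx20 (0.150), Tcf21 (0.150) and Prrx1 (0.151). These p-values therefore say little about the spread of a single gene. The deviations of the libraries numbered 1 correlated at 0.78 and those numbered 2 at 0.64 over 9807 genes, and labeled replicate 3 correlated at 0.48 with unlabeled replicate 2. With 2 unlabeled libraries their deviations mirror each other, so these values are not independent signs of pairing. With the block, 1 of 10 partners, 3 of 5 relatives and 2 of 7 epicardial and mesenchymal factors were called. The block fit also called 2 of 7 Id and Hes/Hey genes and 4 of 7 target and fibroblast genes. It called 0 of 10 Kruppel-like and 0 of 4 AP-1 genes. Without the block none of these were called. Over 11 settings the log2 fold change was above 0 in all for Tcf21 (0.08 to 0.49), Tbx20 (0.26 to 1.11), Hand2 (0.08 to 1.56) and Meox1 (1.36 to 1.94). It was below 0 in all for Prrx1 (-0.79 to -0.01). For Hand2 and Prrx1 the value nearest to 0 came without unlabeled replicate 1. The sign changed for Twist1 (-0.21 to 0.75), Twist2 (-0.07 to 0.91), Gata4 (-0.86 to 0.13) and Gata6 (-0.14 to 0.11). Without the block, the lowest adjusted p of Meox1 was 0.444. Levels of all 10 factors moved between deposited CPM and RPM, as the 2 scales have different totals. Depth limits Tbx5, which has no rate, and Meox1, whose 7 reads in labeled replicate 3 set the width of its interval.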
